A study of Mus musculus with 9 samples.

Results

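The 10 genes described here are the alarmin cytokines and interleukin 1 regulators of the epidermis: Tslp, Il33, Il18, Il1a, Il1b, Il1rn, Il1r1, Il1r2, Irak3 and Il1rl1. They are 10 of the 38203 genes of the expression table, and each has 1 row in it. The list was chosen by gene name, and its members were picked from the FPKM values of these same libraries, so the members' levels and differences are given as a description and not as a test. All 10 passed the minimum level used for testing, an average above 0.1 FPKM in at least 1 genotype. Il1rl1 did so in DKO alone, so it entered the test through the group in which it is highest.

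RNA was sequenced from the trunk epidermis of single E18.5 mouse embryos, separated from the dermis with trypsin, and gene levels were given as FPKM (sequenced fragments normalised for transcript length and library size). WT embryos gave 2 libraries, KO embryos (Esrp1 -/-) 3, KH embryos (Esrp1 -/- with Esrp2 +/-) 2 and DKO embryos (Esrp1 -/- and Esrp2 -/-) 2, all on a mixed C57BL6/129Sv background. The paper bred KO, KH and DKO embryos from 3 different crosses, so genotype cannot be told apart from cross and litter between them. Both alleles are germline, so every cell of the embryo carries them, and the Esrp1 allele lacks internal exons while the rest of the gene can still be transcribed. The extraction notes describe the controls as lacking Esrp2, whereas the sample labels call them WT, and the labels are followed here. Esrp2 stood at 118 and 136 FPKM in WT, at 88.1, 88.4 and 131 in KO, at 38.6 and 89.5 in KH and at 0.0843 and 0.0463 in DKO. Esrp1 stood at 119 and 142 FPKM in WT, against 18.2 to 55.1 in the 7 libraries of the other genotypes. FPKM sums ranged from 713318 to 1130713 per library and 11851 to 12228 genes reached 1 FPKM. FPKM holds no read counts, so the number of reads behind each value is unknown and no counting interval is given. Markers of keratinocytes dominated every library, with a summed level of 3605 to 7786 FPKM for 4 basal markers and 25363 to 72628 FPKM for 4 suprabasal markers. The basal sum was 4176 to 4221 FPKM in WT and 5716 to 7046 in DKO. The suprabasal sum was 53592 to 66182 FPKM in WT and 29470 to 45301 in DKO. KO and KH overlapped DKO for both sums. Xist, a transcript of female cells, did not exceed 0.178 FPKM in 5 libraries, namely WT replicate 1 and all KH and DKO libraries. It stood at 76.2 to 180 FPKM in the KO libraries and at 111 in WT replicate 2. In the comparisons of DKO or KH with KO, sex and genotype therefore cannot be told apart. The members all lie on autosomes, and the part of sex in their levels was not tested.

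Alarmins are cytokines that epithelial cells hold ready or make quickly and that alert the immune system when a barrier is damaged. IL-1 alpha, IL-1 beta, IL-18 and IL-33 belong to the interleukin 1 family. They act through paired receptors of the Toll/interleukin 1 receptor class, and the signal passes through MyD88 and the IRAK kinases to NF-kB. IL-1 beta and IL-18 are made as inactive precursors that caspase 1 cuts, whereas IL-1 alpha and IL-33 are active without that step. TSLP is an unrelated cytokine of keratinocytes that acts on dendritic cells and other immune cells. Il1rn encodes a secreted antagonist that occupies the interleukin 1 receptor, Il1r2 a decoy receptor that binds the ligand without signalling, and Irak3 (IRAK-M) an inhibitory member of the IRAK family.

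The sequences just upstream of the start sites are shown for the members whose levels are compared most closely below. Il33, Il1b and Irak3 had higher levels in both DKO libraries than in all other libraries, and Il1a is the neighbour of Il1b on chromosome 2 without such a difference. Each line gives the 250 bases before a RefSeq start site in GRCm38.p6, the assembly also called mm10, read 5′ to 3′ on the strand of the gene. Capitals mark matches to 5 motifs. The letters of the TATA box were TATAAA, searched on the strand of the gene. The other motifs were searched on either strand, with TGANTCA as the letters of AP-1. Those of C/EBP were TTGCNNAA. Those of the cyclic AMP response element (CRE) were TGACGTCA, and NF-kB was searched by its consensus. No sequence of Tslp is shown.
Il33, upstream start, chr19:29924863-29925112, plus strand: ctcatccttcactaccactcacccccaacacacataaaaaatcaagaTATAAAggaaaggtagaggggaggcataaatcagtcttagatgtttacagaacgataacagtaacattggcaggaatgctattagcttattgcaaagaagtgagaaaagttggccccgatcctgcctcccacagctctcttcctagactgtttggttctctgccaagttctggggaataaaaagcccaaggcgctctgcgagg
Il33, downstream start, chr19:29945540-29945789, plus strand: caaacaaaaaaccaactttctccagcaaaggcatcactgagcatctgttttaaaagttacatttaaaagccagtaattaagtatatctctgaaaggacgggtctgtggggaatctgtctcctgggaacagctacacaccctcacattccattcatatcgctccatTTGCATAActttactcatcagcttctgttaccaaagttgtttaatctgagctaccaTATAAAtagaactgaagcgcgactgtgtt
Il1b, chr2:129371140-129371389, minus strand: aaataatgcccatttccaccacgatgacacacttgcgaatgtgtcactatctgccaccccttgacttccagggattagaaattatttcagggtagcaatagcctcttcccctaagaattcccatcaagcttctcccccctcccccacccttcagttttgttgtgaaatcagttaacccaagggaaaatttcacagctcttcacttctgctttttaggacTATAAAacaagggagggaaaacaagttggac
Il1a, chr2:129309973-129310222, minus strand: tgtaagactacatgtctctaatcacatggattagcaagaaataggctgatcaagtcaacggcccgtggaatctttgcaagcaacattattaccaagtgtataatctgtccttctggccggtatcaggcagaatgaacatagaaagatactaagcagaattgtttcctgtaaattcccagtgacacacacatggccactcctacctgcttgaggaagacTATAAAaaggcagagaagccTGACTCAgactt
Irak3, chr10:120202131-120202380, minus strand: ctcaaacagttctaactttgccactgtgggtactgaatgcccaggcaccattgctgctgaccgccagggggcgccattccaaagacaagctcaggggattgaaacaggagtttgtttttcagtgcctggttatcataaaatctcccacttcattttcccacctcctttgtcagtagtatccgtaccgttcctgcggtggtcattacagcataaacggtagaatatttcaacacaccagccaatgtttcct

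RefSeq start sites were taken for 9 of the 10 members, with 15 promoters in all. Member promoters on chromosome 18, where Tslp lies, were left out, so Tslp was not searched. Il1b had a TATA box at -31 to -26 from its start, and no other of the motifs searched. Il1a had a TATA box at -32 to -27 and an AP-1 match at -12 to -6. The downstream start of Il33 had a TATA box at -29 to -24 and a C/EBP match at -85 to -78, and the upstream start had a TATAAA at -203 to -198 only. The printed window of Irak3 held none of the motifs, and neither did that of its downstream start, chr10:120201598-120201847. Of the members not printed, Il1rn had an AP-1 match at -141 to -135, Il1rl1 a C/EBP match at -34 to -27, and Il1r1 a C/EBP match at -133 to -126 of one start and an NF-kB match at -232 to -223 of another. Among 32851 promoters of the same window, the TATAAA sequence occurred in 7.59%, AP-1 in 6.75%, C/EBP in 9.56%, CRE in 1.55% and NF-kB in 7.25%. Whether any of these matches is used in the epidermis was not measured.

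Il33, Tslp, Il1b and Irak3 were higher in both DKO libraries than in each of the other 7 libraries. The lowest DKO level was 5.28 times the highest level elsewhere for Il33, 4.59 times for Tslp, 4.10 times for Il1b and 4.01 times for Irak3. The other 6 members did not separate the DKO libraries from the rest. Of all 16897 tested genes, 5.33% had both DKO libraries above the other 7. For each difference below, log2(FPKM + 1) of all 9 libraries was fitted together with limma, and a gene was called where the Benjamini-Hochberg adjusted p was under 0.05 and the mean FPKM differed over 2-fold. On that scale the change of a weakly expressed gene is understated, so the ratio of the mean FPKM is given beside them. In bulk epidermis, fewer or more cells of a type and less or more RNA per cell cannot be told apart.

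**Figure D1:**
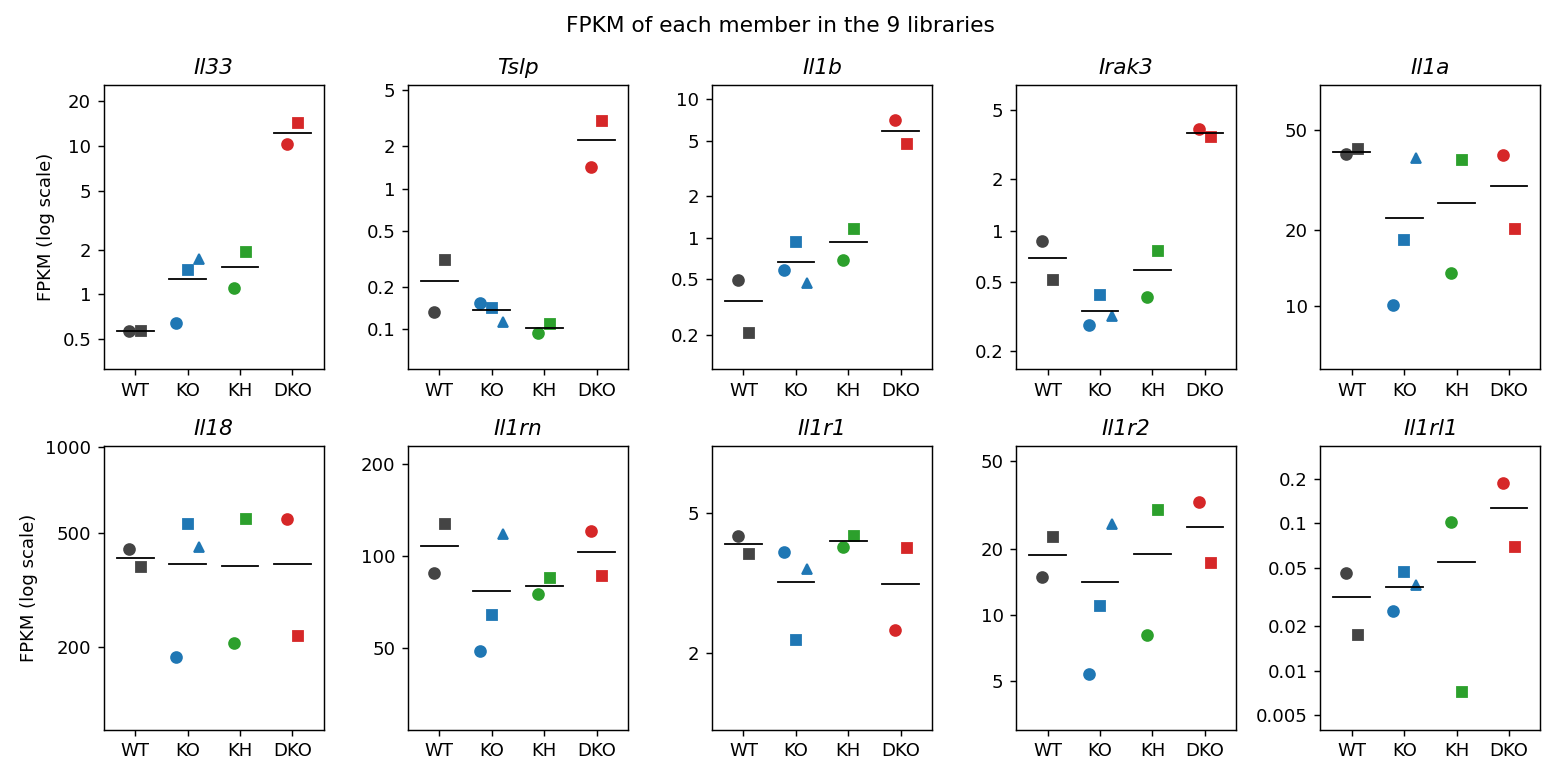
FPKM of each of the 10 genes in the 9 libraries on a log axis, with 1 point per embryo (circle, square and triangle for replicates 1, 2 and 3) and a bar at the genotype mean. The red DKO points of Il33, Tslp, Il1b and Irak3 lie above all other points of their panels, whereas DKO lies within or next to the range of the other genotypes for the other 6 genes.

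Among the cytokines, Il33 had the largest difference between DKO and WT. IL-33 is kept in the nucleus of barrier cells, is released on damage and signals through the receptor encoded by Il1rl1. Il33 (ENSMUSG00000024810, chr19:29925114-29960718, plus strand) stood at 0.570 and 0.569 FPKM in WT, at 0.645, 1.45 and 1.73 in KO, at 1.11 and 1.94 in KH and at 10.2 and 14.2 in DKO. The 5 KO and KH libraries all lay above the 2 WT libraries and all below the 2 DKO libraries. The WT mean was 0.569 ± 0.000808 FPKM (SD, n = 2) and the DKO mean 12.2 ± 2.83 (SD, n = 2), a ratio of 21.5. On the log2(FPKM + 1) scale the difference from WT was 0.50 (SE 0.27) in KO, 0.67 (SE 0.29) in KH and 3.06 (SE 0.29) in DKO. These 3 comparisons share the WT libraries. DKO exceeded KO by 2.56 (SE 0.27) and KH by 2.39 (SE 0.29) on this scale. Ranked by mean FPKM among all tested genes, Il33 moved from the 23.8th percentile in WT to the 66.7th in DKO.

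Il1b was the other interleukin 1 family ligand among the 10 members with both DKO libraries above all others. IL-1 beta is the ligand best known from activated myeloid cells, and keratinocytes carry much less of its transcript than of Il1a. Il1b (ENSMUSG00000027398, chr2:129364570-129371139, minus strand) stood at 0.495 and 0.203 FPKM in WT, at 0.584, 0.926 and 0.474 in KO, at 0.689 and 1.15 in KH and at 6.99 and 4.73 in DKO. KO overlapped WT, both KH libraries lay above WT, and the DKO libraries stood apart from all. The mean was 0.349 ± 0.206 FPKM (SD, n = 2) in WT and 5.86 ± 1.60 (SD, n = 2) in DKO, a ratio of 16.8. The WT values behind this ratio differed 2.43-fold, so its size depends on single WT libraries. The difference in log2(FPKM + 1) from WT was 0.30 (SE 0.21) in KO, 0.51 (SE 0.23) in KH and 2.33 (SE 0.23) in DKO. DKO exceeded KO by 2.04 (SE 0.21) and KH by 1.83 (SE 0.23). An antisense gene, Il1bos, overlaps Il1b, and the counting is not stated to have used the strand, so reads of the pair cannot be told apart.

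Tslp was the lowest of the cytokines outside DKO. Tslp (ENSMUSG00000024379, chromosome 18, plus strand) stood at 0.133 and 0.309 FPKM in WT, at 0.154, 0.143 and 0.113 in KO, at 0.0944 and 0.109 in KH and at 1.42 and 3.02 in DKO. The 7 libraries outside DKO stayed under 0.31 FPKM, and the KO and KH libraries were not above WT replicate 2. The WT mean was 0.221 ± 0.125 FPKM (SD, n = 2), the KO mean 0.137 ± 0.0213 (SD, n = 3), the KH mean 0.102 ± 0.0105 (SD, n = 2) and the DKO mean 2.22 ± 1.13 (SD, n = 2). The DKO mean was 10.03 times the WT mean, 16.3 times the KO mean and 21.8 times the KH mean, and the last 2 ratios were larger than those of Il33 (9.59 and 8.03). The ratio to WT rests on unequal WT values of 0.133 and 0.309 FPKM, so its size depends on single libraries. The difference in log2(FPKM + 1) from WT was -0.10 (SE 0.19) in KO, -0.14 (SE 0.21) in KH and 1.36 (SE 0.21) in DKO. The pseudocount weighs heavily on a gene at this level. Among the 4 genes, Tslp also differed most between the DKO embryos, with the higher level 2.13 times the lower. In the FPKM data Tslp shares a locus with Wdr36, AC135961.1 and U6. The lincRNA gene 4930455D15Rik overlaps Tslp on the opposite strand.

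Irak3 was the regulator with a higher level in DKO. IRAK-M lacks kinase activity and dampens signalling below the interleukin 1 and Toll-like receptors, and it is itself induced by such signalling in macrophages. Irak3 (ENSMUSG00000020227, chr10:120141648-120202130, minus strand) stood at 0.868 and 0.516 FPKM in WT, at 0.283, 0.420 and 0.319 in KO, at 0.412 and 0.766 in KH and at 3.89 and 3.48 in DKO. The 3 KO libraries all lay below the 2 WT libraries, KH overlapped both, and DKO lay above all. The WT mean was 0.692 ± 0.249 FPKM (SD, n = 2), the KO mean 0.341 ± 0.0711 (SD, n = 3), the KH mean 0.589 ± 0.251 (SD, n = 2) and the DKO mean 3.69 ± 0.290 (SD, n = 2). The DKO mean was 5.33 times the WT mean and 10.8 times the KO mean. The difference in log2(FPKM + 1) from WT was -0.33 (SE 0.15) in KO, -0.09 (SE 0.17) in KH and 1.48 (SE 0.17) in DKO, and DKO exceeded KO by 1.81 (SE 0.15). Irak3 overlaps Tmbim4 on the opposite strand, and both share 1 locus in the table.

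**Figure D2:**
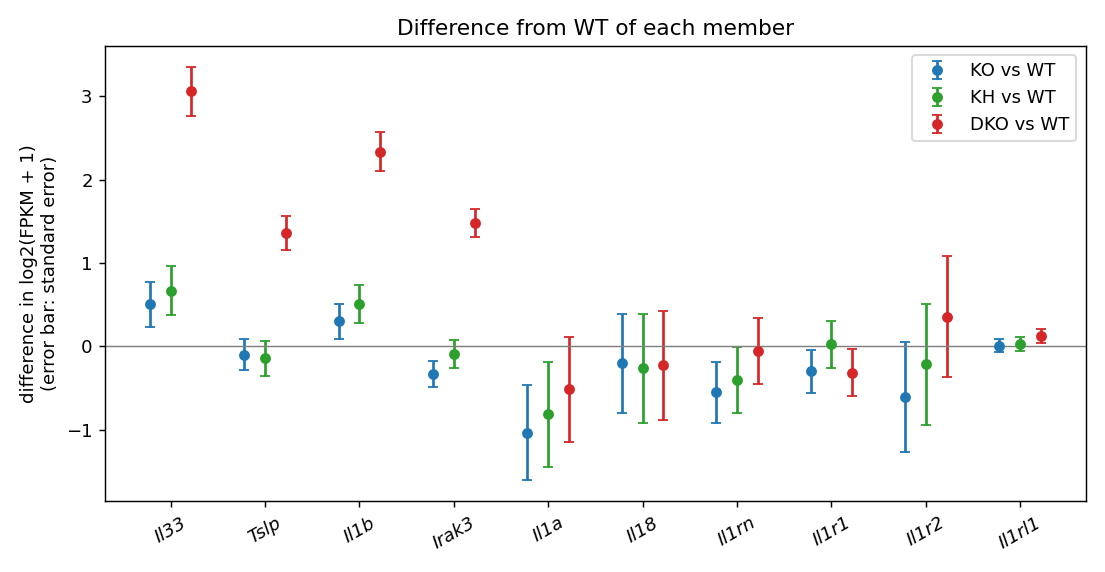
Difference of KO (blue), KH (green) and DKO (red) from WT in log2(FPKM + 1) for each gene, with bars of 1 standard error from the fit over all 9 libraries. Il33, Tslp, Il1b and Irak3 have DKO differences between 1.36 and 3.06, while Il1a, Il18, Il1rn, Il1r1, Il1r2 and Il1rl1 have DKO differences between -0.52 and 0.35.

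These 4 genes were the members called in the comparisons with DKO. Between DKO and WT, 4 of 10 members were called, all higher in DKO, where 0.728% of all tested genes were called in either direction and 0.479% as higher in DKO. Between DKO and KO it was again 4 of 10, against 0.639% of all tested genes in either direction and 0.521% as higher in DKO. Between DKO and KH it was 4 of 10, against 0.426% and 0.385%. Nothing is read from these counts, since the members were chosen from the same contrasts. Limma called 0 of 10 members between KO and WT, where 0.0296% of all genes were called, and 0 of 10 between KH and WT, where the share was also 0.0296%. It called 0 of 10 between KH and KO, where 0% of all genes were called and 185 had an unadjusted p under 0.05. In each of these 3 comparisons 0 members had an unadjusted p under 0.05, where 4.53% (KO and WT), 3.72% (KH and WT) and 1.09% (KH and KO) of all tested genes had one, so the zeros say nothing about the members. The median difference of the 10 members in log2(FPKM + 1) was 0.24 between DKO and WT, -0.25 between KO and WT and -0.12 between KH and WT, against 0.02, 0 and 0 over all tested genes. Without Il1rl1 the first of these medians was 0.35.

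The calls rested unequally on single libraries. Without WT replicate 2, Il33 was the only member still called between DKO and WT, and the differences of Il1b, Irak3 and Tslp were then 2.18, 1.33 and 1.46. Tslp also lost its call between DKO and WT without WT replicate 1, KO replicate 2 or KH replicate 1. Between DKO and KH, Irak3 was the only member still called without WT replicate 2 or without KH replicate 1. Between DKO and KO, 3 members were still called without KO replicate 2 or KO replicate 3, with Tslp lost each time. The direction of the 4 differences between DKO and each other genotype held in all alternatives.

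Il1a and Il18, the most abundant cytokines of the list, did not separate DKO from KO and KH. IL-1 alpha is stored in keratinocytes and released when they are injured. Il1a (ENSMUSG00000027399, chr2:129299610-129309972, minus strand) stood at 40.1 and 41.9 FPKM in WT, at 10.2, 18.3 and 38.7 in KO, at 13.6 and 37.9 in KH and at 39.6 and 20.2 in DKO. Both WT libraries lay above the 7 others, and every mutant genotype held 1 library near them and at least 1 at 20.2 FPKM or less. The difference in log2(FPKM + 1) from WT was -1.04 (SE 0.57) in KO, -0.82 (SE 0.63) in KH and -0.52 (SE 0.63) in DKO. Il1a overlaps Gm14023 on the opposite strand and shares a locus with it in the FPKM data.

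Il18 encodes a cytokine precursor that keratinocytes make in large amounts. Il18 (ENSMUSG00000039217, chr9:50554827-50581840, plus strand) stood at 438 and 380.2 FPKM in WT, at 185, 537 and 446 in KO, at 206 and 559.7 in KH and at 558 and 218 in DKO. Each mutant genotype spanned the WT values, and the genotype means were close, at 409, 389, 383 and 388 FPKM. The DKO difference from WT was -0.23 (SE 0.65) on the log2(FPKM + 1) scale. Its rank among all tested genes lay between the 98.2th and the 98.4th percentile in every genotype. Il18 overlaps Bco2 and Tex12 on the opposite strand.

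The antagonist Il1rn was also abundant in all genotypes. Il1rn (ENSMUSG00000026981, chr2:24336853-24351494, plus strand) stood at 88.0 and 127 FPKM in WT, at 48.8, 63.9 and 118 in KO, at 74.8 and 84.5 in KH and at 120.4 and 85.9 in DKO. One DKO value lay between the WT values and the other just below them, with a difference of -0.06 (SE 0.39) in log2(FPKM + 1). KO and KH differed from WT by -0.55 (SE 0.36) and -0.41 (SE 0.39). The gene lies on chromosome 2 with the IL-36 genes, whose values follow below.

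The receptor genes lie together on chromosome 1 and had low to moderate levels. Il1r1, the signalling receptor of IL-1 alpha and IL-1 beta (ENSMUSG00000026072, chr1:40225080-40317257, plus strand), stood at 4.30 and 3.82 FPKM in WT, at 3.87, 2.18 and 3.47 in KO, at 3.99 and 4.30 in KH and at 2.32 and 3.96 in DKO. Its libraries spanned 1.98-fold in all, the narrowest range of the 10 members, and the DKO difference was -0.32 (SE 0.28) in log2(FPKM + 1). The decoy Il1r2 (ENSMUSG00000026073, chr1:40074079-40125231, plus strand) stood at 14.9 and 22.7 FPKM in WT, at 5.40, 11.0 and 25.8 in KO, at 8.06 and 29.9 in KH and at 32.7 and 17.3 in DKO. Il1r2 varied more within KO, 4.78-fold, and within KH, 3.71-fold, than its means varied between genotypes, and the DKO difference from WT was 0.35 (SE 0.72). Gm16894 runs antisense to Il1r2.

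Il1rl1 encodes ST2, the IL-33 receptor of mast cells, innate lymphoid cells and some T cells. Il1rl1 (ENSMUSG00000026069, chr1:40429570-40465415, plus strand) stood at 0.0461 and 0.0174 FPKM in WT, at 0.0253, 0.0469 and 0.0383 in KO, at 0.102 and 0.00718 in KH and at 0.187 and 0.0693 in DKO. It stayed under 0.19 FPKM in all libraries. Both DKO libraries lay above the WT and KO libraries and overlapped KH. The DKO mean was 4.03 times the WT mean, and the difference was 0.13 (SE 0.08) in log2(FPKM + 1) and 0.75 with a pseudocount of 0.1.

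Ordered by mean FPKM, a scale already divided by length, WT epidermis ran from Il18 (409 FPKM) and Il1rn (108) through Il1a (41.0), Il1r2 (18.8) and Il1r1 (4.06) to Irak3 (0.692), Il33 (0.569), Il1b (0.349), Tslp (0.221) and Il1rl1 (0.0317). The WT libraries of Irak3 and Il33 overlapped, as did those of Il1b and Tslp, and the other neighbours did not. In DKO, Il33 (12.2 FPKM), Il1b (5.86) and Irak3 (3.69) stood above Il1r1 (3.14), which was followed by Tslp (2.22) and Il1rl1 (0.128). The DKO libraries of Irak3, Il1r1 and Tslp overlapped step by step, and those of Il1a and Il1r2 overlapped as well.

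The makeup of the interleukin 1 ligands differed in the same direction in both DKO embryos. Of the summed FPKM of Il1a and Il1b, the share of Il1b was 1.22% and 0.483% for WT, 5.43%, 4.82% and 1.21% for KO, 4.83% and 2.95% for KH and 15.0% and 19.0% for DKO. The DKO shares were the highest, and 4 of the 5 KO and KH libraries lay above both WT libraries. The FPKM of Il1rn was 178 and 624 times that of Il1b in WT, 83.6, 69.0 and 249 times in KO, 109 and 73.3 times in KH and 17.2 and 18.2 times in DKO. Set against Il1a and Il1b together, Il1rn was 2.17 and 3.02 times as high in WT, 4.54, 3.33 and 3.01 times in KO, 5.24 and 2.16 times in KH and 2.58 and 3.45 times in DKO. The lower ratio to Il1b in DKO thus did not extend to the ratio to both ligands, where the genotypes overlapped. These ratios follow from the levels above and add no independent evidence. Il18 remained 83.8% to 96.3% of the summed FPKM of the 5 cytokines in every library.

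**Figure D3:**
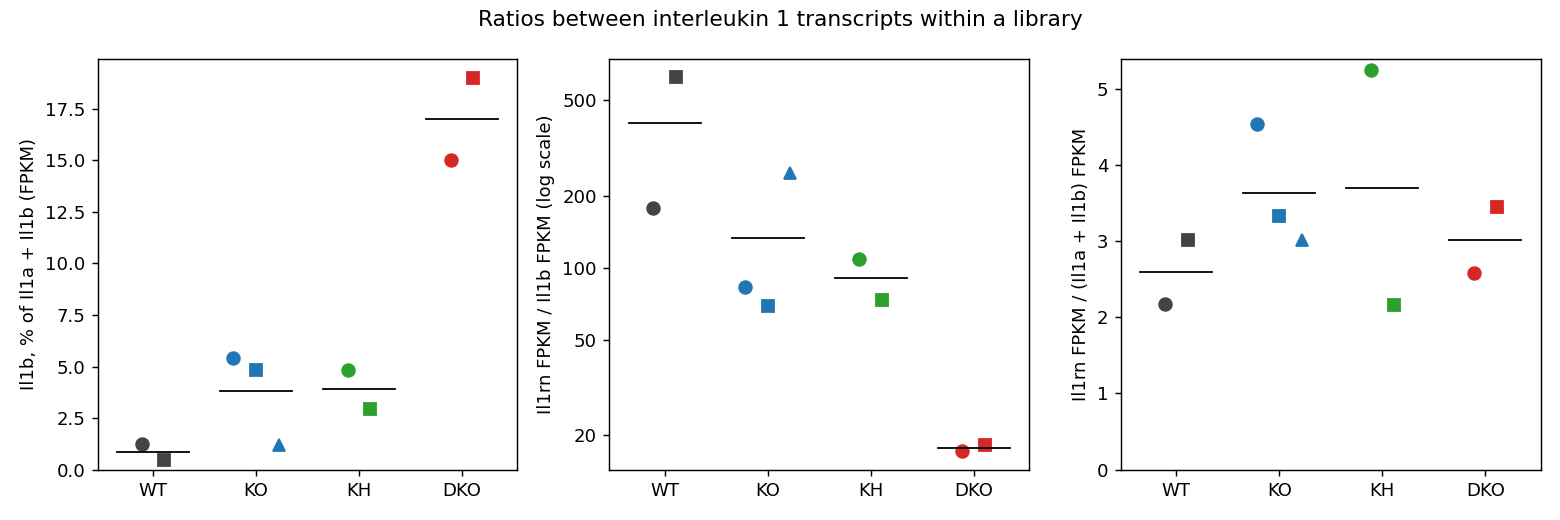
Ratios of FPKM within each library: Il1b as a percent of Il1a plus Il1b (left), Il1rn over Il1b on a log axis (middle) and Il1rn over Il1a plus Il1b (right), with 1 point per embryo and a bar at the genotype mean. The DKO points are the highest on the left (15.0% and 19.0%) and the lowest in the middle (17.2 and 18.2), and overlap the other genotypes on the right.

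Much of the spread of the abundant members ran along single libraries rather than genotypes. KO replicate 1, KH replicate 1 and DKO replicate 2 had the smallest FPKM sums of their genotypes, and in each of them Il18 and Il1a were the lowest of the genotype. Lor, which encodes the cornified envelope protein loricrin, stood at 2960, 1973 and 2645 FPKM in these 3 libraries and at 4398 to 7007 FPKM in the other 6. Of the 6 pairs of libraries within a genotype, the library with the larger FPKM sum had the higher value in 6 pairs for Il18, 6 for Irak3, 5 each for Il1b and Il1rl1, 4 each for Il1a, Il1r2, Il1rn and Il33, and 2 each for Tslp and Il1r1. For Lor it was also 6. What this spread contributes to the genotype differences was not tested beyond the rescaled fits. Rescaled to TPM, in which every library has the same sum, Il33 stood at 9.20 and 18.4 in DKO against at most 2.09 elsewhere, Il1b at 6.29 and 6.13 against at most 1.25, Irak3 at 3.50 and 4.51 against at most 0.970, and Tslp at 1.28 and 3.91 against at most 0.357. The DKO libraries remained above all others for each of the 4 genes on this scale.

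**Figure D4:**
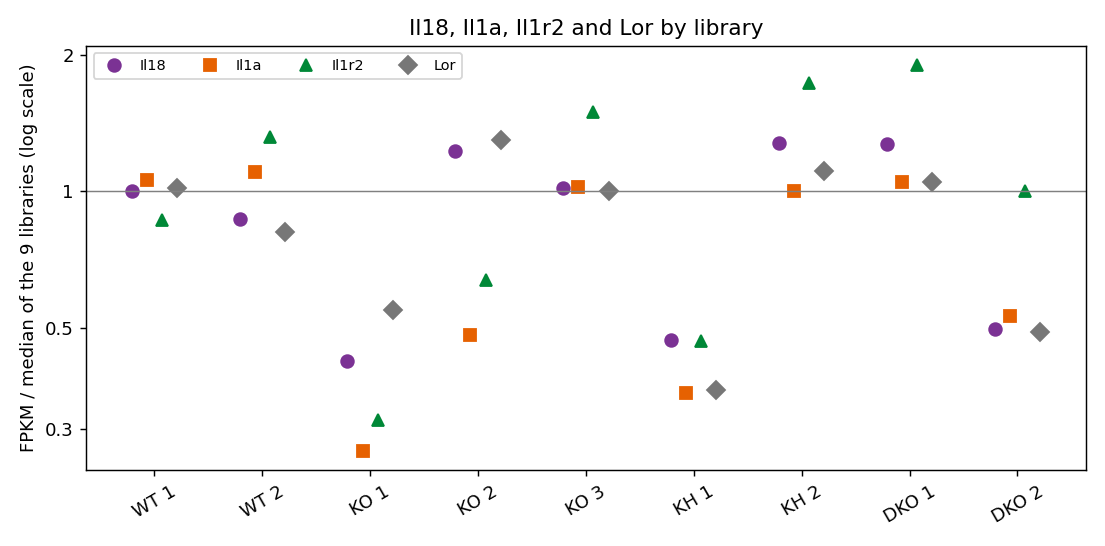
FPKM of Il18, Il1a, Il1r2 and Lor in each of the 9 libraries, each divided by the gene's median over the 9 libraries, on a log axis. All 4 genes lie below their medians in KO replicate 1 and KH replicate 1, and 3 of them do so in DKO replicate 2, where Il1r2 is at its median.

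By the root mean square difference between profiles of log2(FPKM + 1) over the 9 libraries, each centred on its mean, the genes most like each variable member were named. The closest to Il33 were Hpgd (0.26), a prostaglandin-degrading enzyme, Lpo (0.29), which encodes lactoperoxidase, and Lce3b (0.35), a late cornified envelope gene. Lce3b was listed at 0 in the 7 libraries outside DKO and stood at 5.25 and 4.71 FPKM in DKO. Closest to Il1b were Tpm2 (0.26), a tropomyosin, Sema3g (0.26), a semaphorin, and again Lpo (0.28). Tpm2 stood at 7.52 to 18.4 FPKM in the 7 other libraries and at 56.7 and 49.2 in DKO. Closest to Tslp were Gyk (0.20), which encodes glycerol kinase, Ifi202b (0.21), an interferon-inducible gene, and Mapre2 (0.22), a microtubule-binding protein. Closest to Irak3 were the simple epithelial keratin Krt7 (0.15), Iffo2 (0.16) and the growth factor Fgf1 (0.17), each of them highest in the 2 DKO libraries. Il1a and Il1r2 shared Acpp among their nearest genes. Il1a was nearest to Kctd4 (0.18), Sybu (0.20) and Acpp (0.21), and Il1r2 to Aadac (0.29), Ephx3 (0.32) and Acpp (0.32). Acpp, an acid phosphatase, followed the library pattern described for Il1a, with 18.3 FPKM in KH replicate 1 and 62.0 in KH replicate 2.

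The rest of the interleukin 1 family and its machinery was examined as a list of 42 further genes of ligands, receptors, adaptors, kinases, NF-kB subunits and inflammasome components. Of these, 40 were tested and limma called 0 between DKO and WT, with 12 at an unadjusted p under 0.05, where 13.8% of all tested genes had one. Their median difference was 0.05 in log2(FPKM + 1), against 0.02 over all tested genes, with 23 above and 17 below 0. Of the ligands, the IL-36 genes were abundant. Il1f6 (Il36a) stood at 89.2 and 64.9 FPKM in WT and 197 and 128 in DKO, with KO and KH between 52.5 and 147 (adjusted p = 0.368), and Il1f9 (Il36g) at 154 and 134 in WT and 151 and 88.1 in DKO, with KO and KH between 77.4 and 173 (adjusted p = 0.779). Il1f5 (Il36rn), the antagonist of that branch, had 538 and 508 FPKM in WT and 823 and 555 in DKO, with KO and KH between 209 and 563 (adjusted p = 0.741).

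Receptor genes of the family differed in level. Il1rap, the shared signalling chain of IL-1 and IL-33, ranged from 7.50 to 14.8 FPKM over the 9 libraries, and Il1rl2, the IL-36 receptor, from 4.05 to 13.0. The IL-18 receptor chains Il18r1 and Il18rap stayed at or under 0.322 and 1.06 FPKM. Of the TSLP receptor chains, Crlf2 stood at 1.24 to 3.54 FPKM outside DKO and at 3.66 and 3.91 in DKO (adjusted p = 0.241), and Il7r stayed at or under 0.438 FPKM. Il1rl1, Il18r1 and Il18rap were thus at or under 1.06 FPKM in all libraries, whereas Il1rap was not scarce.

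The processing and signalling genes included the largest difference of the list. Nlrp10, a member of the NLR family, stood at 78.5 and 73.2 FPKM in WT, at 35.3, 75.6 and 95.4 in KO, at 41.4 and 109.9 in KH and at 19.1 and 9.67 in DKO. Both DKO values lay below all others, but the difference of -2.39 (SE 0.56) in log2(FPKM + 1) did not pass the test (adjusted p = 0.127). Casp1, the protease that matures IL-1 beta and IL-18, stood at 15.2 and 12.9 FPKM in WT and at 44.1 and 25.1 in DKO, with KO and KH between 11.2 and 26.4 (adjusted p = 0.28). The DNA sensor Aim2 (adjusted p = 0.22), the NF-kB subunit Relb (adjusted p = 0.169) and the ubiquitin ligase Traf6 (adjusted p = 0.245) differed by 1.46, 1.03 and -1.02 and were not called. Aim2 stood at 2.63 and 2.06 FPKM in WT, at 8.24, 3.75 and 5.09 in KO, at 6.89 and 10.9 in KH and at 4.93 and 13.2 in DKO, so its DKO libraries overlapped those of KO and KH, and its difference from WT was 1.54 (SE 0.45) in KH. Pycard, the inflammasome adaptor, was abundant at 164 to 357 FPKM in all libraries, while Nlrp3 stayed at or under 0.188.

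A second list held 35 genes that interleukin 1 or NF-kB is commonly known to induce. In the comparison of DKO with WT, 25 were tested and 3 were called, all higher in DKO, namely Ccl20, Lcn2 and Defb4, where 0.728% of all tested genes were called. Lcn2, Defb4 and Ptgs2 passed the minimum level through DKO alone, the group in which they are highest, so nothing is read from the calls of Lcn2 and Defb4 or from the count of 3. These 3 were also the genes called against KO and against KH, in comparisons that share the DKO libraries. The list was also drawn up with results of these libraries known, and no count or median over it is read as support. Without the 3 genes that passed through DKO alone, 11 of 22 had an unadjusted p under 0.05, against 13.8% of all tested genes. The median difference of these 22 between DKO and WT was 0.43 in log2(FPKM + 1), against 0.02 over all tested genes, with 17 above and 5 below 0.

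Ccl20, the chemokine that draws CCR6-bearing lymphocytes and dendritic cells, had the largest difference of the list. It stood at 0.752 and 0.276 FPKM in WT, at 0.119, 0.438 and 0.143 in KO, at 0.219 and 0.338 in KH and at 48.1 and 38.8 in DKO. The lower DKO value was 51.6 times the highest value elsewhere, and the difference from WT was 4.89 (SE 0.23) in log2(FPKM + 1), with an adjusted p of 3.49e-05 by limma. Lcn2, an iron-sequestering protein of inflamed epithelia, was at most 0.0861 FPKM in the 7 other libraries and stood at 1.12 and 0.873 in DKO. Defb4, a beta-defensin, was listed at 0 in the 7 other libraries and stood at 0.546 and 1.12 FPKM in DKO.

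Other genes of the list had differences that did not pass the test. Nfkbia, the NF-kB inhibitor that NF-kB itself induces, stood at 27.3 and 23.4 FPKM in WT, at 31.3 to 37.6 in KO and KH and at 45.1 and 49.5 in DKO (adjusted p = 0.104). Bcl3 stood at 2.80 and 1.54 FPKM in WT and at 7.93 and 7.13 in DKO, with KO and KH between 1.87 and 5.25 (adjusted p = 0.15). Tnf stood at 0.149 and 0.173 FPKM in WT and at 0.586 and 0.562 in DKO, with KO and KH between 0.161 and 0.492 (adjusted p = 0.131). Cxcl1, a neutrophil chemokine, was listed at 0 in KH replicate 2, stood at 0.0239 to 0.319 FPKM in the other libraries outside DKO and at 0.449 and 1.00 in DKO (adjusted p = 0.141). Ptgs2, the inducible prostaglandin synthase, stood at 0.0149 to 0.0683 FPKM outside DKO and at 0.148 and 0.830 in DKO. Birc3 was lower in DKO, with 16.9 and 21.9 FPKM in WT and 11.5 and 10.7 in DKO, which overlapped KO and KH at 11.3 to 18.8 (adjusted p = 0.298). Ccl17 was lower in both DKO libraries, at 0.113 and 0.132 FPKM, than in all others. It stood at 0.373 and 0.392 in WT and at 0.267 to 0.717 in KO and KH (adjusted p = 0.423 by limma). Il6, Csf2, Csf3, Cxcl2 and Cxcl5, also known targets of interleukin 1, were too low to be tested and stayed at or under 0.112 FPKM in every library.

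**Figure D5:**
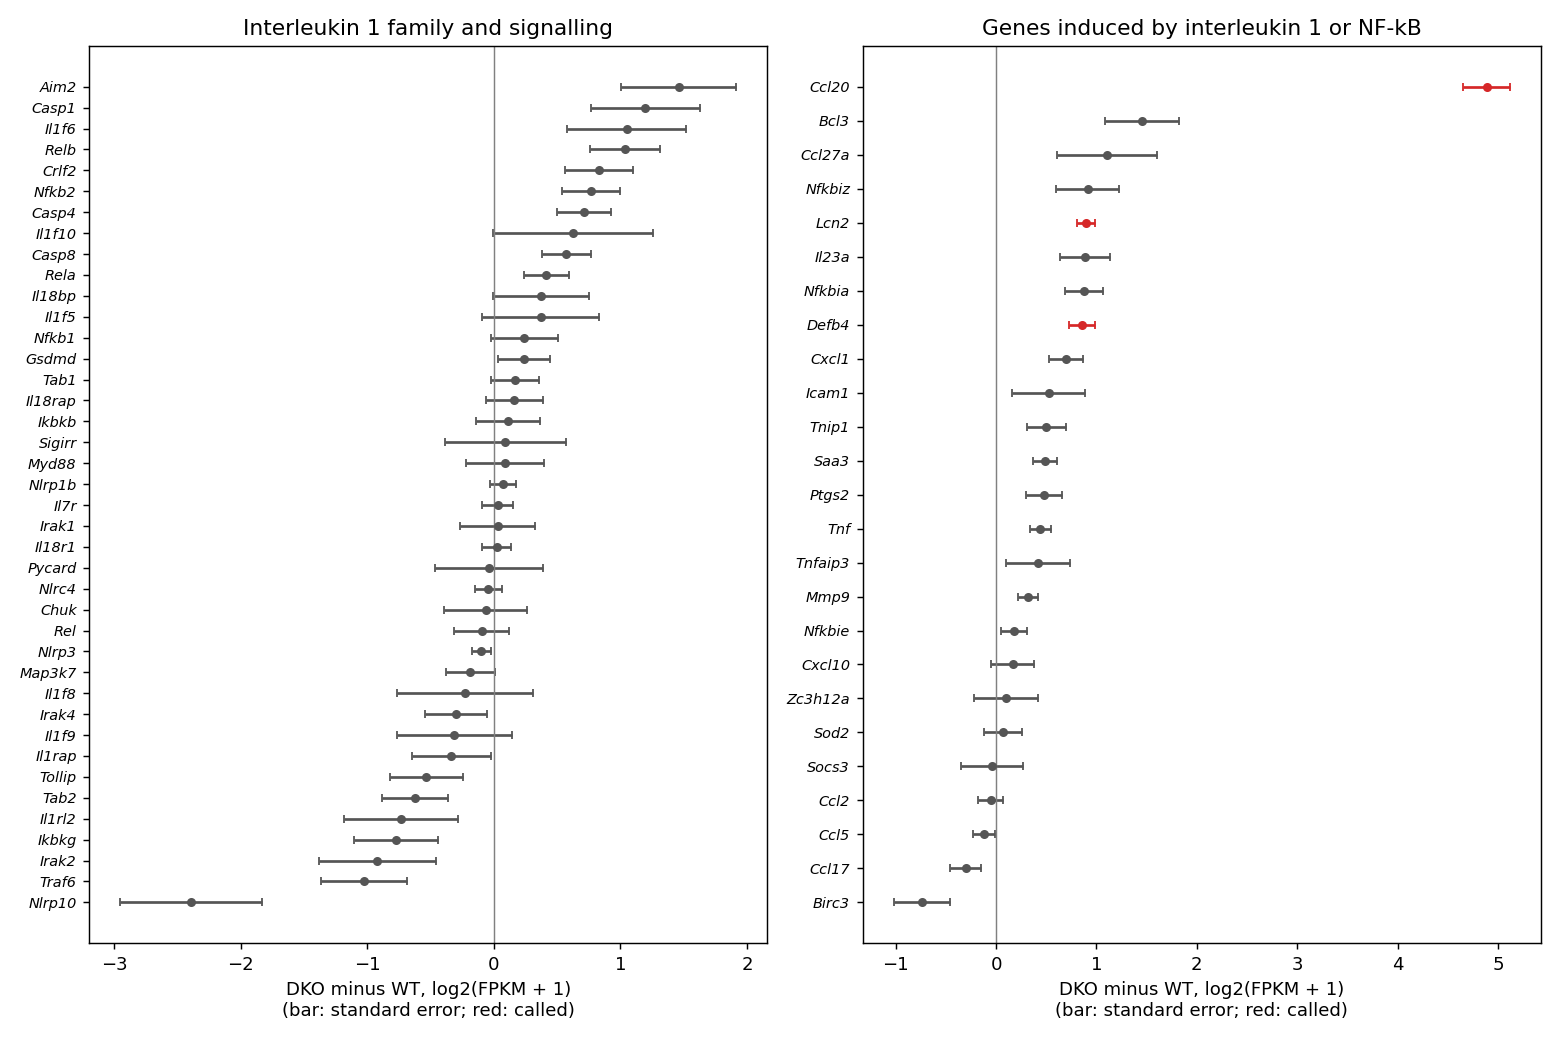
Difference between DKO and WT in log2(FPKM + 1), with bars of 1 standard error, for the 40 tested genes of the interleukin 1 family and signalling list (left) and the 25 tested genes of the response list (right). The 3 called genes, in red, are Ccl20 at 4.89, Lcn2 at 0.90 and Defb4 at 0.86, and none of the genes on the left is called.

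The summed markers of antigen-presenting cells, and those of macrophages, lay above the WT range in each DKO library, and DKO overlapped KO and KH for both. The single markers differed. Cd74, H2-Aa, H2-Ab1, Cd68 and Lyz2 lay above WT in both DKO libraries, whereas Ptprc, Csf1r and Emr1 did not. Ptprc stood at 1.97 and 1.06 FPKM in WT and 1.74 and 1.07 in DKO, and Emr1 at 1.41 and 1.07 and at 2.24 and 0.996. Csf1r stood at 6.28 and 3.28 FPKM in WT and at 7.58 and 4.71 in DKO. The summed FPKM of 5 markers of antigen-presenting cells was 3.32 to 7.86 in WT, 4.73 to 17.4 in KO, 6.63 to 17.4 in KH and 11.0 to 30.4 in DKO, and Cd207, which defines Langerhans cells, was listed at 0 in all libraries but DKO replicate 1, where it had 0.0288. The sum of 4 macrophage and monocyte markers was 9.20 to 15.4 in WT, 14.5 to 18.2 in KO, 12.2 to 39.4 in KH and 16.4 to 28.4 in DKO. The sum of 6 mast cell and basophil markers never exceeded 0.923 FPKM, with Ms4a2 and Fcer1a listed at 0 in all libraries. The sum of 5 neutrophil markers never exceeded 0.876 FPKM, with Ly6g, Mpo and Elane listed at 0 in all libraries. The part of antigen-presenting cells and macrophages in the Il33, Il1b, Irak3 and Tslp differences was not tested.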

How the data were processed

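Epidermal RNA of 9 mouse embryos was sequenced as stranded, poly(A)-selected libraries. The authors mapped the reads with TopHat 1.4.1 to mm10 and Ensembl gene models and computed the deposited FPKM per gene and library with Cuffdiff 2.2.0. Whether the counting used the strand is not given in the sources used here. FPKM keeps no read counts, so the reads behind each value and their counting error are unknown. The paper states a minimum of uniquely mapped read pairs per genotype, which was not used here. The precision given is the spread between embryos.

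The library columns were assigned to genotypes by the sample labels. Genes averaging above 0.1 FPKM in at least 1 genotype (16897) were fitted as log2(FPKM + 1) with limma 3.58.1 (R 4.3.3), with 4 genotype means over all 9 libraries, an intensity trend in eBayes, no covariate and 5 residual degrees of freedom, and p-values were adjusted by the Benjamini-Hochberg method over all tested genes. The fit was tested on simulated data. Calls needed an adjusted p under 0.05 and means that differed over 2-fold. All 10 members were named with every library, and of the pathway and response lists the called genes and the most abundant and most changed others. The members, gene lists and tests were chosen with earlier results of these data known. The 20 alternatives varied the pseudocount, filter, samples, variance trend, scaling, weights and replicate block, and left out each library in turn. Positions are from GENCODE M21 (GRCm38), promoter sequences from RefSeq (GRCm38.p6).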

Additional observations from a re-analysis of the deposited data

How the results depend on the processing

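The differences of Il33, Tslp, Il1b and Irak3 between DKO and the other genotypes kept their direction in the 20 alternatives, and Il33 kept its call between DKO and WT in all of them. The call of Tslp between DKO and WT was lost in 9 alternatives, that of Irak3 in 2 and that of Il1b in 1. Between DKO and KO, Tslp lost its call in 3 and Il1b in 1. Between DKO and KH, Tslp lost its call in 12, Il1b in 6, Il33 in 4 and Irak3 in 2. Fitting only the 2 genotypes compared gave 0 called members between DKO and KH. Il1rl1 gave no value under the filter at 1 FPKM and without DKO replicate 1, nor, for KO or KH against WT, in the fit of only the 2 genotypes compared.

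Leaving out 1 library at a time gave 1 to 4 called members between DKO and WT, 3 to 4 between DKO and KO and 1 to 4 between DKO and KH. Over all genes it gave 54 to 152 calls between DKO and WT, 62 to 130 between DKO and KO, 43 to 102 between DKO and KH, 0 to 17 between KO and WT, 1 to 33 between KH and WT and 0 to 21 between KH and KO. For DKO against WT it gave 0 to 1 called pathway genes and 2 to 4 called response genes.

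With only the 2 genotypes compared, all-gene calls were 400 for DKO and WT, 33 for DKO and KH, 1 for KH and WT and 5 for KH and KO, with 1 pathway gene called. With arrayWeights they were 556 for DKO and WT and 10 for KO and WT, with 2 pathway and 8 response genes called. A pseudocount of 0.1 gave 3 calls for KO and WT, 2 for KH and WT and 1 for KH and KO. A filter at 1 FPKM gave 1 call each for KO and WT and for KH and WT and 1 called response gene, since Lcn2 and Defb4 were then not tested. Without the variance trend, KO and WT and KH and WT had 1 call each. Rescaling to TPM gave 1 called pathway gene, and TPM, median ratio scaling and quantile normalization each gave 1 call between KH and KO. The cause of the other changes was not tested.

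With the replicate number as a block, all-gene calls were 67 for DKO and WT, 52 for DKO and KO, 43 for DKO and KH and 0 for KO and WT and for KH and WT, and the called members were 2, 2 and 1 in the 3 comparisons with DKO. The numbers are not known to pair the embryos. Deviations of same-numbered libraries from their genotype means correlated between -0.567 and 0.468. In a genotype with 2 libraries the deviations mirror each other, so these correlations cannot decide whether embryos were paired.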

Other observations

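Some cell types not discussed above also varied between libraries. The summed FPKM of 4 melanocyte markers (Dct, Mlana, Pmel and Tyrp1) was 40.0 to 44.0 in WT, 63.1 to 76.4 in KO, 53.2 to 140.9 in KH and 89.8 to 196 in DKO. The sum of 3 T cell markers was 6.37 to 9.74 in WT, 11.6 to 25.5 in KO, 10.5 to 46.1 in KH and 4.99 to 15.1 in DKO. Globin transcripts ranged from 13.2 to 1282 FPKM over the 9 libraries, and 4 endothelial markers summed to at most 0.355 FPKM. The sum of 6 dermal fibroblast markers was 44.2 to 75.3 in DKO and 50.7 to 149.6 in the other libraries, and that of 3 innate lymphoid cell genes, of which Gata3 and Rora are also keratinocyte genes, was 38.7 to 78.4 over all libraries.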
